A study of Ovis aries and Bos taurus with 6 samples.

Results

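The miRNAs of the miR-17-92 and miR-106b-25 clusters were followed in extracellular vesicles (EVs, membrane particles shed by cells) from milk. The 9 member names were miR-17, miR-18a, miR-19a, miR-19b, miR-20a, miR-92a, miR-93, miR-106b and miR-25. Rows were taken by miRBase name from both count tables. In the sheep table, a pair of rows without a miRBase name that list miR-92a was added, together with every unnamed row whose bases 2 to 8 (the seed, which pairs with target mRNAs) equal those of the listed miR-25, miR-19b or miR-17-5p. This gave 10 of 685 sheep rows and 7 of 779 cow rows. No row of miR-18a was found in either table by these criteria, and none of miR-19a in the cow table. The sheep group was 3 libraries from Ordos fine wool sheep and the cow group 3 libraries from Holstein cows, all females in mid lactation, with no treatment named for either. The labels speak of 3 sheep and do not say whether each cow library is 1 animal, so p-values measure the spread between these libraries. EVs were isolated with the Total Exosome Isolation kit, a precipitation method that does not sort vesicles by their cell of origin. The cow libraries were made for a prior study, so a species difference here is also a difference of breed and of study, and these cannot be told apart.

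miRNAs of these clusters are cut from long primary transcripts that carry several hairpins each, and every mature miRNA then lowers the mRNAs that match its seed. The miR-17-92 cluster is known for promoting proliferation of lymphoid and tumour cells, and the miR-106b-25 cluster, a paralogue, lies in an intron of the replication gene MCM7. Members fall into seed groups with different targets: miR-17, miR-20a, miR-93 and miR-106b share a seed, miR-19a and miR-19b share another, and miR-92a and miR-25 share a further one apart from both. Among the RefSeq sheep genes (assembly ARS-UI_Ramb_v3.0, used for gene order only), 4 of the 9 member names have an entry. MIR17 and MIR19B neighbour each other, and MIR106B and MIR25 neighbour each other inside MCM7.

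The sheep table lists a sequence for each row, and these show which rows belong together and how little separates them. They are printed as listed, 5′ to 3′ in DNA letters, with bases 2 to 8 in capitals. Names of rows without a miRBase name are those by which the listed sequence is generally known in mammals, and the file itself does not give them. The rows with the seed of miR-17-5p come first, then those of miR-19, then miR-92a and miR-25.
miR-17-5p: cAAAGTGCttacagtgcaggta
miR-20a (unnamed row): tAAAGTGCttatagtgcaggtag
miR-20b (unnamed row): cAAAGTGCtcacagtgcaggtag
miR-93 (unnamed row): cAAAGTGCtgttcgtgcaggt
miR-106b: tAAAGTGCtgacagtgcagat
miR-19b: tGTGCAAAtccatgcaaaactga
miR-19a (unnamed row): tGTGCAAAtctatgcaaaact
miR-92a, shorter form (unnamed row): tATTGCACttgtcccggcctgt
miR-92a, longer form (unnamed row): tATTGCACttgtcccggcctgtt
miR-25: aTTGCACTtgtctcggtctga

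Counted from 1 at the 5′ end, the miR-20b row differs from miR-17-5p by T10C alone over 22 bases. The miR-20a row differs from it by C1T and C12T, the miR-106b row by C1T, T10G and G20A, and the miR-93 row by T10G, A11T, C12T and A13C. miR-20b belongs to a further paralogous cluster on the X chromosome and entered through its seed. The miR-19a row differs from miR-19b by C11T over 21 bases. The miR-92a rows are identical over 22 bases, and the longer one has 1 more base at the 3′ end. The listed miR-25 starts 1 base later than miR-92a: set against miR-92a from its base 2, it differs by T13C, T17C and A21T. Its bases 2 to 8 are therefore TTGCACT where those of miR-92a are ATTGCAC, and no other sheep row has TTGCACT at that place. At any place, TTGCACT occurs in 6 of the 685 sheep rows, the miR-92a rows among them. Whether any of these rows holds miR-25 reads with another start was not tested. The counting may divide the reads of rows this alike, and single values are uncertain to that extent. The cow table gives no sequences.

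Total miRNA counts were 1110632, 2078695 and 1073914 in sheep replicates 1, 2 and 3, and 328527, 556489 and 387723 in the cow replicates. Levels are given as CPM, the count divided by this total and scaled alike in all libraries. Each read spans a whole miRNA, so no length scaling was applied. The largest single row held 58.9%, 51.2% and 68.9% of the counts in cow replicates 1, 2 and 3. In sheep replicates 1, 2 and 3 it held 19.6%, 63.6% and 38.0%. CPM and percentages of all other rows, and species ratios formed from them, therefore depend on how much 1 row took of each library. A floor of 3 counts is 1.44 to 2.79 CPM in sheep and 5.39 to 9.13 CPM in cow, and floors and intervals cover counting error only. Markers of milk epithelium (6 of 7 with a sheep row, 7 of 7 with a cow row) summed to 25.1% to 64.3% of the sheep counts and to 0.115% to 0.235% of the cow counts, where miR-200b had 0, 1 and 0 counts. Most of the sheep sum was miR-148a alone, with 19.6%, 63.6% and 38.0% in replicates 1, 2 and 3. Red cell markers (1 of 3 in sheep, 3 of 3 in cow) summed to 0.0705% to 7.72% in sheep and 1.53% to 2.76% in cow. Leukocyte markers (6 of 7 and 7 of 7) summed to 1.17% to 2.10% and 0.463% to 0.900%. In sheep this was mostly miR-146a (0.949%, 1.19% and 2.06%), which took 0.00800% to 0.0325% in cow. miR-142-3p was also higher in sheep. By contrast, miR-150 took 0.00308% to 0.0637% in sheep and 0.281% to 0.570% in cow. miR-342 took 0.00559% to 0.0306% and 0.118% to 0.230%. miR-142-5p and miR-223 overlapped between species, and miR-155 had no sheep row. Sheep replicate 1 stood apart from the other sheep libraries in red cell, liver and muscle miRNAs. It held 7.02% of the liver miRNA miR-122 against 0.184% and 0.570%, 2.66% of muscle markers against 0.0550% and 0.0876%, and 0.439% of the endothelial miR-126-3p against 0.0499% and 0.123%. In cow, miR-122 took 0.0320% to 0.101%, muscle markers at most 0.00335% and miR-126-3p 0.101% to 0.154%. Together with miR-126-5p, which had no sheep row, the cow endothelial markers summed to 0.173% to 0.279%. Rows with a miRBase name held 41.9% to 78.1% of a sheep library but only 15.8% to 29.0% of a cow library, so cow reads of a member may also lie in cow rows without a name.

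miR-92a was the leading member in sheep. Replicate 1 had 5.86% of its counts in the 2 rows (95% Wilson interval 5.82 to 5.90), replicate 2 had 2.13% (2.11 to 2.15) and replicate 3 had 2.84% (2.80 to 2.87), a mean of 3.61% ± 1.98 (SD, n = 3). Replicate 1 was highest, and it is also the library with 7.72% of red cell miR-486 against 0.0741% and 0.0705%. Without it the miR-92a mean was 2.48%. A share also depends on the other rows of a library, and miR-148a took 19.6% of replicate 1 against 63.6% and 38.0%. With trimmed-mean factors, in the join where it was first tested below, miR-92a spanned 85135 to 106944 normalized CPM over the sheep libraries. The part of red cells in the level was not tested, and in vesicle RNA as in bulk tissue, fewer source cells and less RNA per cell cannot be told apart. miR-92a made up 98.9%, 93.3% and 90.9% of all member counts in the 3 sheep libraries, so a sum over the clusters in sheep is in effect a miR-92a value. With the unnamed rows left out, the 4 rows with a miRBase name (miR-17-5p, miR-19b, miR-25 and miR-106b) came to 0.0248% ± 0.0114 of the sheep counts, against 3.78% ± 1.91 for all 10.

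The forms of miR-92a traded places between sheep libraries. The shorter row, of 22 bases, had 48428, 4637 and 22201 counts in replicates 1, 2 and 3, and the longer row, of 23 bases, had 16647, 39563 and 8254. The shorter form thus made up 74.4% of miR-92a in replicate 1 (95% Wilson interval 74.1 to 74.8), 10.5% in replicate 2 (10.2 to 10.8) and 72.9% in replicate 3 (72.4 to 73.4). Replicate 2 stood apart from the others, which lay within 2 percentage points of each other. The shorter row ranked 7, 24 and 11 among the 685 sheep rows by count, and the longer row 14, 7 and 17. Of 10 other pairs of sheep rows that differ only by 1 base at the 3′ end and hold at least 300 counts, the shorter row was likewise lowest in replicate 2 in 4. It was highest in replicate 2 in 5. The order seen for miR-92a was therefore not shared by all such pairs in that library.

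**Figure D1:**
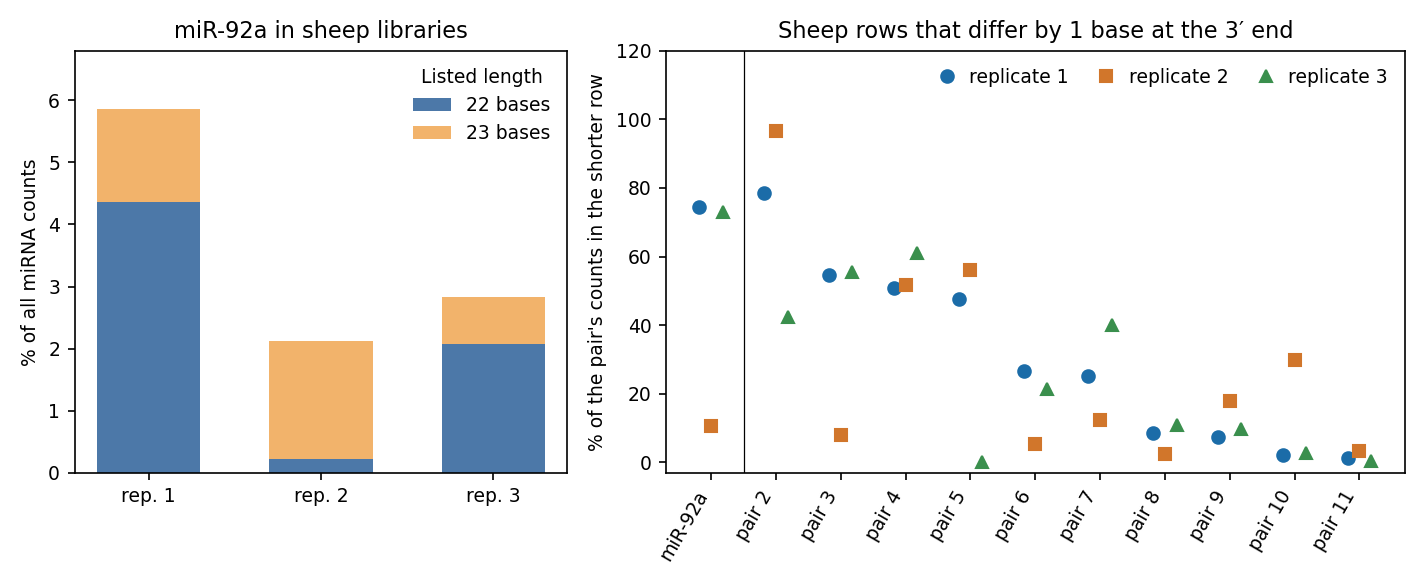
Left, share of all miRNA counts (%) taken by miR-92a in the 3 sheep libraries, with bars split by the listed length of the row. Right, share (%) of the shorter row in each of 11 pairs of sheep rows that differ by 1 base at the 3′ end, 1 marker per library: for miR-92a replicate 2 sits at 10.5% and the others at 74.4% and 72.9%, while the other pairs go either way.

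In sheep the miR-17 seed group, which targets cell cycle and growth-signal mRNAs, came next. miR-20a had 370, 891 and 1182 CPM in replicates 1, 2 and 3 (411, 1852 and 1269 counts). miR-20b had 124, 364 and 1084 CPM, and miR-17-5p had 73.8, 83.7 and 356 CPM. miR-93 had 34.2, 38.5 and 207 CPM. For all of these replicate 3 was highest and replicate 1 lowest, whereas miR-92a was highest in replicate 1. The 5 rows of this seed summed to 0.0619%, 0.140% and 0.283% of the counts. miR-20a lay above miR-20b, miR-20b above miR-17-5p and miR-17-5p above miR-93 within each of the 3 libraries, although the ranges of neighbours overlapped.

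miR-19b, miR-25 and miR-106b showed the other order between sheep libraries. miR-19b, held to be the main oncogenic part of its cluster, had 32, 157 and 11 counts (28.8, 75.5 and 10.2 CPM). miR-25 had 24, 108 and 1 counts (21.6, 52.0 and 0.931 CPM), and miR-106b had 19, 50 and 2 counts (17.1, 24.1 and 1.86 CPM). Replicate 2 was highest and replicate 3 lowest in all 3, with miR-25 and miR-106b at or under the floor there. The unnamed miR-19a row had 2, 2 and 4 counts, near the floor in every library. Members of 1 cluster did not keep a fixed ratio in sheep. miR-93 exceeded miR-106b by 2.00, 1.60 and 111 times in replicates 1, 2 and 3, the last on 222 against 2 counts. miR-17-5p exceeded miR-19b by 2.56, 1.11 and 34.7 times.

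In cow the order was miR-92a, miR-25, miR-93, miR-106b, miR-20a, miR-17-5p and miR-19b by mean CPM. miR-92a had 1128, 2926 and 1428 counts, or 3434, 5258 and 3683 CPM (mean 4125 ± 989, SD, n = 3). miR-25 had 364, 611 and 410 counts, or 1108, 1098 and 1057 CPM (1088 ± 26.7), the closest agreement between libraries of any member. All other cow members lay at 201 CPM or below in every library. miR-92a and miR-25 took 75.1% ± 5.18 and 20.3% ± 3.46 of the member counts. miR-92a lay above miR-25 and miR-25 above miR-93 without overlap. miR-93 had 15, 53 and 78 counts (45.7, 95.2 and 201 CPM). miR-20a had 13, 25 and 18 counts (39.6, 44.9 and 46.4 CPM), above miR-17-5p with 9, 3 and 12 counts (27.4, 5.39 and 31.0 CPM) without overlap. The closest of these values rest on 13 and 12 counts, and their 95% Wilson intervals overlap. miR-106b had 0, 0 and 66 counts and miR-19b 0, 0 and 5. Replicate 3 held every count of both. The floor of 3 counts, taken here as the limit for a count of 0, is 9.13 CPM in replicate 1 and 5.39 in replicate 2. The 170 CPM of miR-106b in replicate 3 is thus not matched in the other cow libraries. miR-93, from the same primary transcript as miR-106b, was also highest in replicate 3. miR-93 lay above miR-20a and miR-106b within each of the 3 libraries, although ranges overlapped, while miR-106b lay above miR-20a in replicate 3 and below it in the others.

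**Figure D2:**
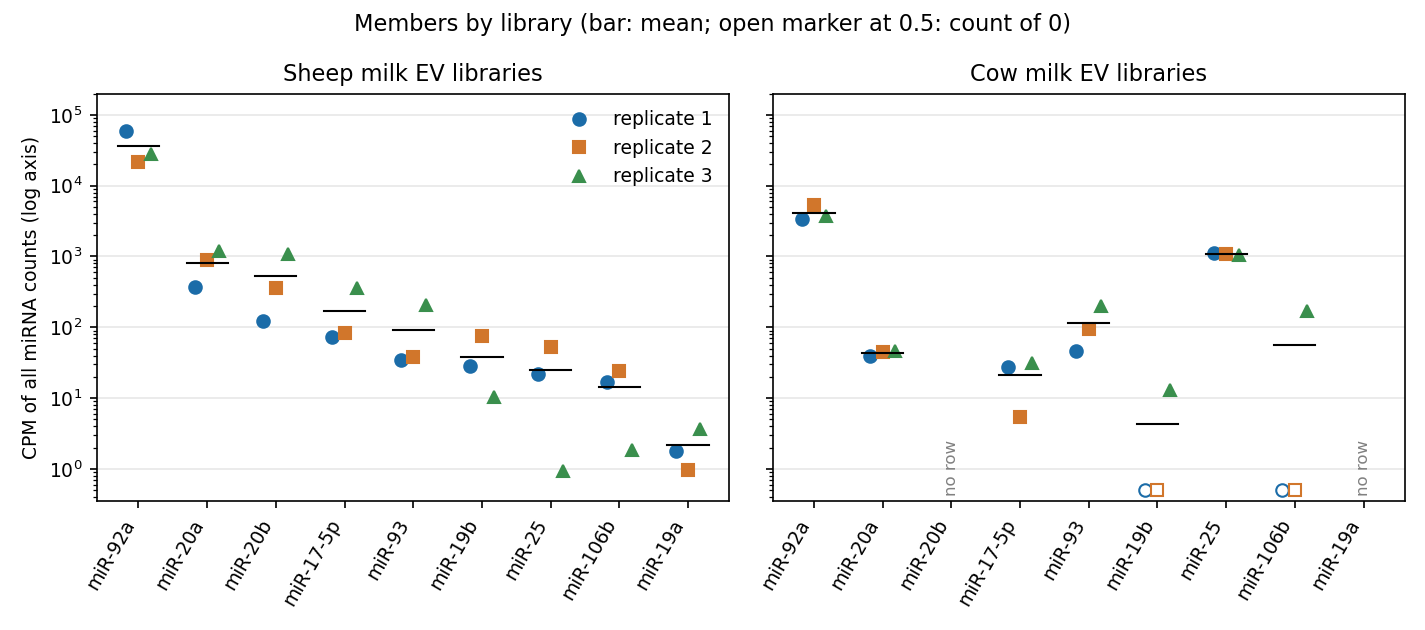
CPM of each member (log axis) in the 3 sheep libraries (left) and the 3 cow libraries (right), 1 marker per library with a bar at the mean, and open markers at the bottom for counts of 0. In sheep miR-92a, with its rows summed, lies far above all other members, while in cow miR-25 follows it at 1057 to 1108 CPM, where sheep libraries have 0.931 to 52.0.

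The comparison of species asks which members were higher in sheep or in cow milk EVs. Of the 7 members with rows in both tables, 3 could be tested by miRBase name (edgeR's quasi-likelihood test, trimmed-mean normalization, Benjamini-Hochberg adjustment over 38 miRNAs). miR-106b also has a miRBase name in both species, but the filter on low counts removed it. Without that filter it was at -1.94 ± 1.86 (SE, adjusted p = 0.399, edgeR). miR-25, known to repress the pro-apoptotic gene BIM, was lower in sheep, with a log2 fold change of -5.25 ± 0.80 (SE, adjusted p = 5.01e-09, edgeR) and no overlap between species, as for 57.9% of all miRNAs tested. As printed above, the listed sheep miR-25 starts later than miR-92a, and the part of that start in its fold changes was not tested. miR-17-5p was higher in sheep by 2.80 ± 1.20 (SE, adjusted p = 0.0420, edgeR), with overlapping libraries. miR-19b did not pass (3.29 ± 1.99, adjusted p = 0.166, edgeR). Of all 38 miRNAs, 52.6% passed in either direction, 28.9% as higher and 23.7% as lower in sheep, so 2 of 3 is near what miRNAs in general gave. The median log2 fold change was 2.80 over the 3 members and 0.43 over all 38. Without sheep replicate 1 the values were -4.78 for miR-25 and 3.32 for miR-17-5p, both past the threshold. Without sheep replicate 2, where miR-25 was highest, its value was -7.74. miR-25 kept its direction and its call in all 14 other settings, with values from -7.80 without normalization factors to -1.83 with limma on log2(TPM + 10). The call of miR-17-5p held in 5 of 14. It ended without sheep replicate 3 (1.77) and without cow replicate 1, 2 or 3 (3.18, 2.68 and 3.55), and was at 0.55 without normalization factors.

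miR-92a could be tested once its sheep rows were added and names that differ only by an arm suffix were joined, which gave 48 miRNAs. Its log2 fold change of sheep over cow was 2.27 ± 0.60 (SE, adjusted p = 0.00484, edgeR). No sheep library overlapped a cow library, as for 60.4% of the 48. In this join 22.9% of miRNAs passed as higher in sheep and 25% as lower. miR-25 was again lower (-5.80 ± 1.19, adjusted p = 0.00100), while miR-17-5p (2.60 ± 1.27) and miR-19b (2.77 ± 1.78) did not pass. Without sheep replicates 1 and 2 in turn, miR-25 was at -5.12 and -7.78. The miR-92a call held with each library left out (1.97 to 2.83, and 2.48 without sheep replicate 1). It ended without normalization factors (1.04) and where only the shorter (1.34) or only the longer (0.97) sheep row was counted, but its direction was the same in all 16 other settings.

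A wider join, added after the data were examined, also took the sheep rows that list miR-20a, miR-93, other carriers of these seeds and the cell type markers. All 7 members could then be tested among 66 miRNAs. miR-20a, the closest relative of miR-17-5p within its cluster, was higher in sheep, with a log2 fold change of 3.20 ± 0.89 (SE, adjusted p = 0.00111, edgeR) and 370 to 1182 CPM in sheep against 39.6 to 46.4 in cow. It was at 4.23 without sheep replicate 1, 2.63 without sheep replicate 3 and 4.93 with limma on log2(TPM + 1). miR-92a (1.78 ± 0.78) also passed as higher and miR-25 (-6.49 ± 0.93) as lower, the latter at -5.15 without sheep replicate 1 and -8.50 without sheep replicate 2. miR-17-5p (1.94 ± 1.23), miR-19b (2.32 ± 2.21), miR-93 (-1.22 ± 1.07) and miR-106b (-2.83 ± 1.57) did not pass. Thus 3 of 7 members passed, where 60.6% of all 66 did, 30.3% as higher and 30.3% as lower in sheep. The median was 1.78 over the members and -0.14 over all. Calls that ended included that of miR-20a without normalization factors (1.88), and that of miR-92a without these (0.87) and without cow replicate 1, 2 or 3 (1.86, 1.95 and 1.57). Without sheep replicate 3, where miR-93 was highest, miR-93 passed as lower in sheep (-3.03). The fit of miR-106b rests on cow replicate 3, the only cow library with a count.

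**Figure D3:**
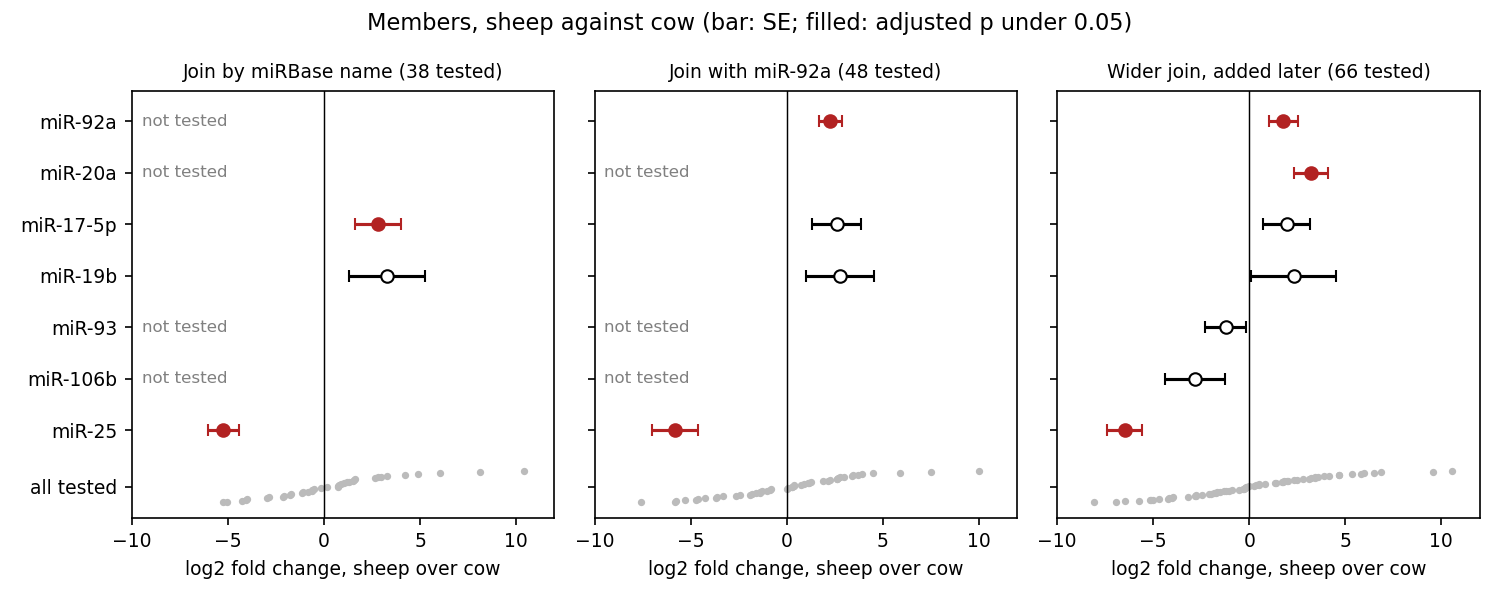
log2 fold change of sheep over cow for each member with its SE (x axis) in the 3 joins, filled where the adjusted p is under 0.05, above grey points for every miRNA tested in that join. miR-25 is lower in sheep in each panel (-5.25, -5.80 and -6.49), miR-92a and miR-20a are higher where tested, and the members spread over much of the range of all tested miRNAs.

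Fold changes moved with the scaling. Against the trimmed-mean values, the median change over the 38 miRNAs joined by name was -1.75 without normalization factors and -0.36 with upper-quartile factors. It was 1.87 with limma on log2(TPM + 1), where the test is another one too. The split into higher and lower calls was 11 to 9, and 5 to 13, 7 to 10 and 20 to 5 in these settings. The same settings gave 11 to 12, 6 to 18, 12 to 14 and 27 to 6 in the join with miR-92a, and 20 to 20, 10 to 22, 21 to 15 and 33 to 6 in the wider join. As ratios of mean levels, the log2 ratio of sheep to cow for miR-92a was 3.13 as CPM of all miRNA counts and 4.71 in deposited TPM. Between these in the lists below stands the value relative to the total of the miRNAs joined by name, 1.16 for miR-92a. That total does not include miR-92a, miR-20a or miR-93, which were not joined by name. miR-25 was at -5.45, -7.82 and -3.53, miR-20a at 4.22, 1.84 and 5.76, and miR-17-5p at 3.01, 0.50 and 4.52. None of these changed sign. miR-93 was at -0.29, -2.80 and 0.97, and no direction is given for it.

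Ratios between members of 1 library do not depend on the scaling. miR-92a exceeded miR-25 by 2711, 409 and 30455 times in sheep replicates 1, 2 and 3, the last on a single miR-25 count, and by 3.10, 4.79 and 3.48 times in cow replicates 1, 2 and 3. The species did not overlap in this ratio. This follows from the CPM, where miR-92a was higher and miR-25 lower in every sheep library, so the ratio is no further evidence. miR-25 against miR-93, both of the miR-106b-25 cluster, was 0.632, 1.35 and 0.00450 in sheep and 24.3, 11.5 and 5.26 in cow, again without overlap. How often ratios of other miRNA pairs did not overlap was not counted. miR-20a against miR-17-5p was 5.01, 10.6 and 3.32 in sheep and 1.44, 8.33 and 1.50 in cow, with overlap. miR-92a against miR-17-5p was 79.7 to 794 in sheep and 119 to 975 in cow, with overlap. The sheep miR-25 row lists a sequence that starts 1 base later than that of miR-92a, as printed above, and the part of the listed start in these ratios was not tested.

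**Figure D4:**
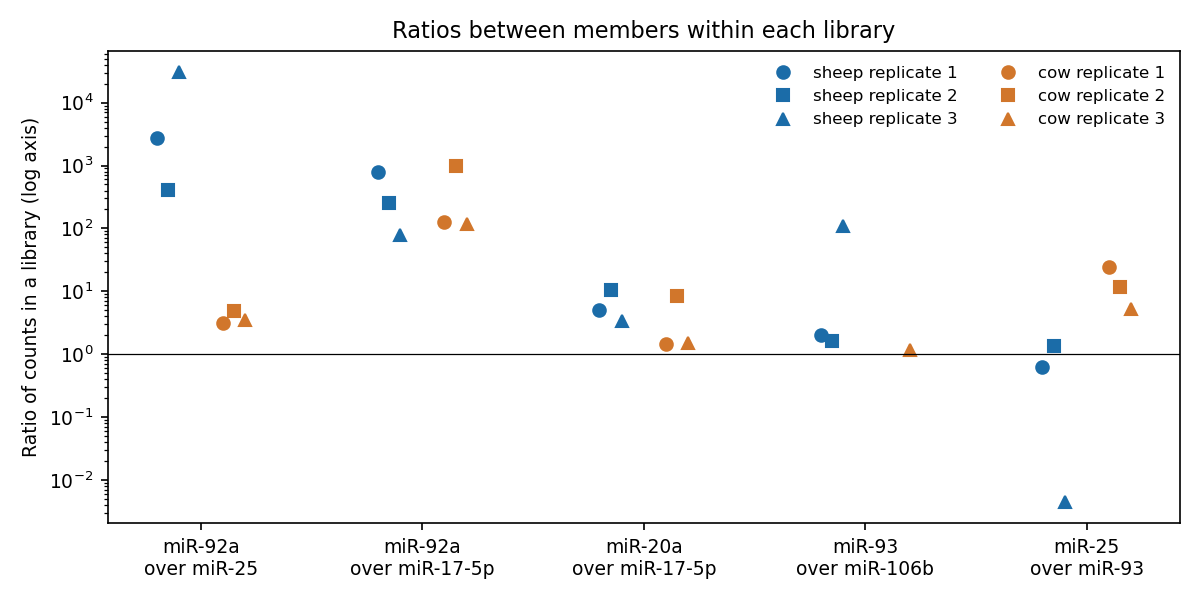
Ratio of counts between pairs of members within each library (log axis), with sheep and cow libraries side by side and 1 marker shape per replicate; a ratio with 0 in the denominator is not drawn. miR-92a over miR-25 lies at 409 or above in sheep and at 4.79 or below in cow, while miR-92a over miR-17-5p and miR-20a over miR-17-5p overlap.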

How the data were processed

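Small RNA libraries of milk EVs were made with a precipitation kit, column extraction and adapter ligation, per the labels' protocols. Adapter ligation and PCR favour some miRNAs, and counts are not molecule numbers. The deposited counts are whole reads per miRNA row, 1 table per species. cutadapt 1.14 and Bowtie were used, per the submitters' processing notes, and the labels used here name no genome build, miRBase release or counter. The deposited TPM are the counts over a library constant (9859791 to 16091056) that no label explains.

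Rows were joined by mature name without species prefix (42 names, 35.2% to 72.5% of sheep and 7.45% to 17.1% of cow counts). A second join (55 names) also took names differing only in arm suffix and the miR-92a rows, since no reference table of mature sequences was at hand. The last (73 names) was added later. Species were compared with edgeR 4.0.16 (quasi-likelihood, TMM factors, library size equal to the joined total, default filterByExpr, threshold 0.05). A standard error is the fold change divided by the root of its F statistic. Alternatives were DESeq2 1.42.0, limma 3.58.1 on log2(TPM + 1) or log2(TPM + 10), other factors, totals and filters, the replicate block and each library left out. The edgeR step was run on simulated counts with a fixed spread and as many miRNAs raised as lowered. That run checks the code and cannot show how calls fare on data such as these. Sums over members carry no test.

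Members and lists were chosen with earlier results of these data known. Named miRNAs are all member rows, fixed lists of other carriers of these seeds and of cell type markers (red cell, leukocyte, milk epithelium, liver, muscle, endothelium), and for each member tested by miRBase name the 3 tested miRNAs of most similar pattern.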

Additional observations from a re-analysis of the deposited data

How the results depend on the processing

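The number of miRNAs called stayed within 1.5 times the main count in every setting run: with 1 library left out it was 17 to 23 by miRBase name (20 in the main fit), 20 to 28 in the second join (23) and 28 to 39 in the third (40). miR-25 kept its direction and call in all 14 settings of each join, and miR-92a and miR-20a kept their direction. Signs turned for miR-106b in the third join, from -2.83 to 0.38 and 0.021 with limma on log2(TPM + 1) and log2(TPM + 10) and 0.48 with the replicate block, with a range of -3.41 to 6.81 when 1 library was left out (6.81 without cow replicate 3, which leaves cow counts of 0, so this is no size). They turned for miR-93 from -1.22 to 0.82 and 0.32 with limma on log2(TPM + 1) and log2(TPM + 10), and for its ratio of mean levels from -0.29 to 0.97 in deposited TPM and over -1.65 to 0.40 with 1 library left out. miR-19b passed with limma on log2(TPM + 1) in each join (1.94), and by name and in the second join without cow replicate 3, which holds its only cow counts. miR-17-5p, called by name, passed in 3 of 14 settings of the second join (2.34 with DESeq2, 3.14 and 1.15 with limma on log2(TPM + 1) and log2(TPM + 10)) and in 2 of 14 of the third (both limma settings). miR-106b passed as lower in sheep in the third join without normalization factors (-4.74). In the second join, where the filter removed it from the main fit, it passed as higher in sheep without cow replicate 3 (6.96, again on cow counts of 0). The cause was not tested. Libraries that share a replicate number did not deviate together (correlations over 38 miRNAs of -0.090, 0.21 and 0.11), so the replicate block has no basis in pairing. It gave 14 calls by miRBase name, 23 in the second join and 34 in the third, and ended the calls of miR-17-5p by name (2.65) and miR-92a in the third join (1.80). The setting that would require a whole-sequence match to a reference was not run. Depth limits miR-19b, miR-106b and miR-19a, whose counts lie near the floor in several libraries. Called members also rest on few counts in places. In the cow libraries miR-17-5p had 9, 3 and 12 counts and miR-20a 13, 25 and 18, and miR-25 had 1 count in sheep replicate 3.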

Other observations

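Other carriers of these seeds were also counted. In sheep, the unnamed row that lists miR-92b, a miR-92a relative from a separate locus, had 585, 246 and 127 counts, or 527, 118.3 and 118.3 CPM. It differs from the shorter miR-92a row by T10C, G21C and T22C and followed it in being highest in replicate 1. In cow miR-92b had 12, 23 and 8 counts (36.5, 41.3 and 20.6 CPM). The species did not overlap, as for 60.6% of the 66 miRNAs tested in the third join, and miR-92b did not pass there (log2 fold change 1.41, adjusted p = 0.296, edgeR). It passed in 1 of 14 other settings, limma on log2(TPM + 1), with 3.33 (adjusted p = 0.00347, range over the settings 0.00347 to 0.620). miR-363, of the paralogous cluster on the X chromosome, had 10, 2 and 2 counts in sheep, and miR-32 had 3, 2 and 2 in sheep and 0, 14 and 4 in cow. The cow table also held rows of the miR-302 family, known from pluripotent cells, whose seed overlaps that of miR-17 with a shift: miR-302b had 19, 32 and 5 counts and miR-302d 8, 48 and 0. The opposite strand of miR-92a, listed as its own sheep row, had 1, 1 and 0 counts against 65075, 44200 and 30455 for miR-92a itself.

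Over the 6 libraries and the 38 miRNAs tested by name, the patterns most like a member's were taken by the root mean square difference of centred log2 CPM. For miR-17-5p these were let-7b (0.83), miR-127 (1.08) and miR-125b (1.16), for miR-19b miR-143 (1.42), let-7g (1.43) and miR-30a-5p (1.48), and for miR-25 miR-150 (1.73), miR-22-3p (1.74) and miR-191 (1.87). No member was among the 3 most alike of another member. Only 3 members were among the 38, so this cannot show whether members vary together.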
